A study of Mus musculus with 12 samples.

Results

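Transcripts of 6 genes best known from T helper 17 (Th17) cells were followed in regulatory T cells (Tregs): the transcription factor genes Rora and Ahr, the cytokine gene Il17a, and the receptor genes Il23r, Il1r1 and Il1rl1. They were chosen by symbol, and all 6 are among the 26609 genes counted. The Tregs were sorted as CD4+CD25hiCD127lo singlets from gut-draining mesenteric nodes. The mice were of the SAMP/YitFC strain, in which ileitis arises without treatment. They were either wild type (WT) or carried a global loss of Esr2, the gene of estrogen receptor beta (ERb-KO, here KO), were male or female, and were left untreated. With 3 libraries in each of 4 groups, the design compares the presence and absence of the receptor within each sex. All 12 libraries are bulk RNA from the same sort and strain, and in bulk RNA fewer cells of a type cannot be told apart from less RNA per cell. Nothing in the labels says that the libraries of a group came from separate mice, so p-values measure the spread between these samples, which may be technical.

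Th17 cells differentiate under TGF-beta with IL-6 and are kept and expanded by IL-23 and IL-1, and nuclear receptors of the ROR family, RORa among them, turn on Il17a and Il23r. Part of the Tregs of the intestine and its draining lymph nodes share genes with this program, and ST2-positive Tregs, which carry the IL-33 receptor encoded by Il1rl1, are known from inflamed mucosa and tissue repair. Ahr encodes a ligand-activated factor that senses dietary and microbial compounds, and is known for supporting both Th17 cytokines and gut Tregs.

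In 4 libraries, titled WT female 2, KO male 1, KO male 2 and KO female 1, the sex-linked transcripts were those of the other sex. Esr2 did not follow the titled genotype either. It had 0, 1 and 14 counts in WT males 1 to 3 and 0, 133 and 159 in WT females. In KO males it had 8, 2 and 95 counts, and in KO females 161, 94 and 128. The KO-labelled libraries outside the 4 held 94 to 128 counts, and leaving out the 4 does not settle the titled genotype. The sources used here do not state which part of Esr2 was deleted. Groups below are those of the titles, every direction rests on them, and results are given with and without the 4 libraries where this matters. Total counts ranged from 10.2 to 16.7 M per library, and 0 counts allow a level of up to 0.176 to 0.291 CPM (counts scaled to library size), counting error only. The Treg genes Foxp3 and Il2ra averaged 755 ± 122 and 788 ± 161 CPM (SD, n = 12), so the defining transcripts of the sorted cells were present in the libraries.

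Since 2 of the genes encode DNA-binding factors that act on Th17 genes, the DNA just upstream of the others is shown first. RefSeq windows of 250 bases before the annotated start (GRCm38.p6) matched 5 of the 6 genes, with 7 windows in all. Searches used AGGTCA, the hexamer that ROR receptors and other nuclear receptors bind, GCGTG, the core bound by the aryl hydrocarbon receptor with its partner, and GGTCANNNTGACC, the palindrome of estrogen receptors, on both strands and with no overlap between the motifs found. AGGTCA was in the windows of Il17a, Il23r and Il1rl1, and GCGTG in those of Rora, Il1r1 and Il1rl1. The windows shown are those of Il17a and of the 3 receptor genes that hold a match, 5′ to 3′ on the gene's strand, with matches on either strand in capitals (an AGGTCA on the other strand reads TGACCT).
Il17a, chr1:20730655-20730904, plus strand: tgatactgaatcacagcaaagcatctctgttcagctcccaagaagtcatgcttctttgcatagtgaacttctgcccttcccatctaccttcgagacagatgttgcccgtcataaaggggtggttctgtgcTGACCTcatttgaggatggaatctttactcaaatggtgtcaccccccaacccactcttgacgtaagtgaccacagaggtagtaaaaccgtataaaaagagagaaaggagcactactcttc
Il23r, chr6:67491856-67492105, minus strand: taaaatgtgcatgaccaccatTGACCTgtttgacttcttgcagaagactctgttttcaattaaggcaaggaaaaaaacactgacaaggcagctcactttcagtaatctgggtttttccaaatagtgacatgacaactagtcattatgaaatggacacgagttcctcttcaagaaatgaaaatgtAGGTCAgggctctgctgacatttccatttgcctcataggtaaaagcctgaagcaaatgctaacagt
Il1r1, second start, chr1:40266336-40266585, plus strand: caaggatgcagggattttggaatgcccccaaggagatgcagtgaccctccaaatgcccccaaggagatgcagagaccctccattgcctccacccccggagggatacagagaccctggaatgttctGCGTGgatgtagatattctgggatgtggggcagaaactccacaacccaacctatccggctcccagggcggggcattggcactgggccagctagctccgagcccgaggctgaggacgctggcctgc
Il1rl1, second start, chr1:40439379-40439628, plus strand: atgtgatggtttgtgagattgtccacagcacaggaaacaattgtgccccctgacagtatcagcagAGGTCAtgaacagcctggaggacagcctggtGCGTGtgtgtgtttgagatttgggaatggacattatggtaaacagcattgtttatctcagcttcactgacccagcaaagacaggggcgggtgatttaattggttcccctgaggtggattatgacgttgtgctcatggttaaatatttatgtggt

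In Il17a the match lies 120 to 115 bases before the start, and in Il23r the matches lie 229 to 224 and 66 to 61 bases before it. Il1rl1 holds AGGTCA 185 to 180 bases and GCGTG 154 to 150 bases before its second start, which lies inside the longer transcript unit. Of all 32851 windows of the same length in the table, 14.0% held AGGTCA and 28.2% held GCGTG, so such matches are frequent. By gene these shares were 15.8% and 30.9%. Among the Th17-type genes, each motif was in 3 of the 7 windows and in 3 of the 5 genes. The first-start windows of Il1r1 and Il1rl1 held neither. The estrogen receptor palindrome was in none of the 7 windows and in 21 of all windows. A match describes these letters and is not evidence of binding.

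Per length of transcript, Ahr was the most abundant of the 6 and Il17a the least. Dividing CPM by the union of exons in GENCODE M21 gave 17.8 CPM per kilobase for Ahr, 7.13 for Rora, 3.3 for Il23r, 2.61 for Il1r1, 1.84 for Il1rl1 and 0.162 for Il17a (means over 12 libraries). Among tested genes with a length, these levels stood at percentile 72.8 for Ahr, 51.2 for Rora, 36.6 for Il23r, 33.1 for Il1r1, 28.4 for Il1rl1 and 5.32 for Il17a. Single libraries ranged from 10 to 27 CPM per kilobase for Ahr and from 4.5 to 9.0 for Rora, without overlap. Rora and Il23r (1.82 to 6.23) overlapped, and so did Il23r, Il1r1 (1.52 to 3.97) and Il1rl1 (0.774 to 3.65) with one another, so the order of these 3 receptors does not exceed the spread between libraries. Il17a, at 0 to 0.483 CPM per kilobase, lay below every library's value of the other 5 genes.

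Rora encodes RORa, a nuclear receptor that supports Th17 differentiation and also belongs to the circadian clock. It lies on chromosome 9, 68653786 to 69388246 (GRCm38, plus strand), and the annotated antisense gene Gm15511 overlaps it. The library protocol carries no strand information, so such overlapping transcripts cannot be told apart. Rora measured 105, 91.8 and 115 CPM in WT males 1 to 3, and 110, 84.2 and 118 CPM in the libraries titled WT female 1 to 3. It measured 111, 72.0 and 98.6 CPM in those titled KO male, and 58.8, 87.4 and 67.2 CPM in those titled KO female. The lowest value of all belonged to a library titled KO female, and 3 of the 6 KO-labelled libraries lay below every WT-labelled one, while the others overlapped with them. Means were 82.5 ± 20.0 CPM in KO and 104 ± 13.3 CPM in WT (SD, n = 6 each).

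Ahr, on chromosome 12 from 35497974 to 35535038 (minus strand), is overlapped on the other strand by the lincRNA gene Gm48236. Its levels were 82.8, 109 and 141 CPM in WT males and 166, 143 and 119 CPM in WT females. They were 94.7, 93.4 and 99.9 CPM in KO males and 98.4, 103 and 61.7 CPM in KO females. All 3 libraries titled WT female lay above all 6 KO-labelled libraries, whereas WT male 1 lay below 5 of them. The KO males were close together (SD 3.44 CPM), and KO female 3 stood far below the rest. Means were 91.9 ± 15.2 CPM in KO and 127 ± 29.5 CPM in WT (SD, n = 6 each).

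Il17a encodes interleukin 17A, the signature cytokine of Th17 cells, and lies on chromosome 1 from 20730905 to 20734496 (plus strand). It was close to absent: 32 counts were found over all 12 libraries. WT males 1 to 3 had 4, 1 and 5 counts, WT females 0, 3 and 0, KO males 7, 7 and 0, and KO females 3, 0 and 2. The highest counts were in the libraries titled KO male 1 and KO male 2, and 4 libraries, from 3 of the groups, had none. The sums of 19 counts in KO and 13 in WT were below the low-count filter of the model fit. On log2(CPM + 1) the mean was 0.29 in KO and 0.18 in WT, a difference of 0.11 (two-sided exact permutation test, p = 0.418, where 0.00216 is the smallest possible p). In 3 against 3 libraries the exact p was 0.7 in females and 0.6 in males, where 0.1 is the smallest possible. With such genes kept, edgeR gave 0.80 (SE 1.19, adjusted p = 0.916) for the average over the sexes. A change of Il17a was not detectable with these counts and this number of libraries.

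Il23r encodes the specific chain of the IL-23 receptor and lies on chromosome 6 from 67422932 to 67491855 (minus strand). It measured 8.20, 9.72 and 6.52 CPM in WT males and 15.5, 9.19 and 7.43 CPM in WT females. In KO males it measured 9.62, 4.83 and 10.3 CPM, and in KO females 4.52, 7.71 and 5.02 CPM. WT female 1 stood alone at the top, and 3 of the 6 KO-labelled libraries lay below all WT-labelled ones. Means were 7.0 ± 2.57 CPM in KO and 9.43 ± 3.2 CPM in WT (SD, n = 6 each), with wide overlap in males.

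Il1r1 encodes the signalling receptor of IL-1, through which Th17 cells are induced and maintained. It lies on chromosome 1 from 40225080 to 40317257 (plus strand), where the annotated transcript Gm38070 overlaps it on the same strand. Levels were 15.8, 20.2 and 16.6 CPM in WT males and 25.3, 24.0 and 19.0 CPM in WT females. They were 9.70, 19.5 and 11.4 CPM in KO males and 12.7, 12.5 and 12.8 CPM in KO females. Of the KO-labelled libraries 5 lay below every WT-labelled library, and the exception was KO male 2, one of the libraries against its titled sex. The 3 KO female libraries hardly differed from each other (SD 0.136 CPM). Means were 13.1 ± 3.34 CPM in KO and 20.2 ± 3.84 CPM in WT (SD, n = 6 each).

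Il1rl1 encodes ST2, the IL-33 receptor, and lies on chromosome 1 from 40429570 to 40465415 (plus strand), in the same receptor cluster as Il1r1. It varied most among the 5 genes with enough counts, with a coefficient of variation of 51.7% over the 12 libraries, against 21.1% for Rora, 26.4% for Ahr, 30.3% for Il1r1 and 37.1% for Il23r. It measured 6.50, 10.3 and 10.9 CPM in WT males and 17.1, 9.32 and 25.2 CPM in WT females. KO males had 18.4, 9.51 and 5.34 CPM, and KO females 8.03, 22.8 and 8.48 CPM. High and low libraries occurred in 3 of the titled groups, and KO and WT overlapped throughout (12.1 ± 6.87 and 13.2 ± 6.81 CPM, SD, n = 6 each). The 4 highest libraries, WT female 1, WT female 3, KO male 1 and KO female 2, are among the 6 that hold Xist and no Y-linked counts, and the other 2 of those measured 9.51 and 8.48 CPM. This was noticed in the values and was not tested.

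**Figure D1:**
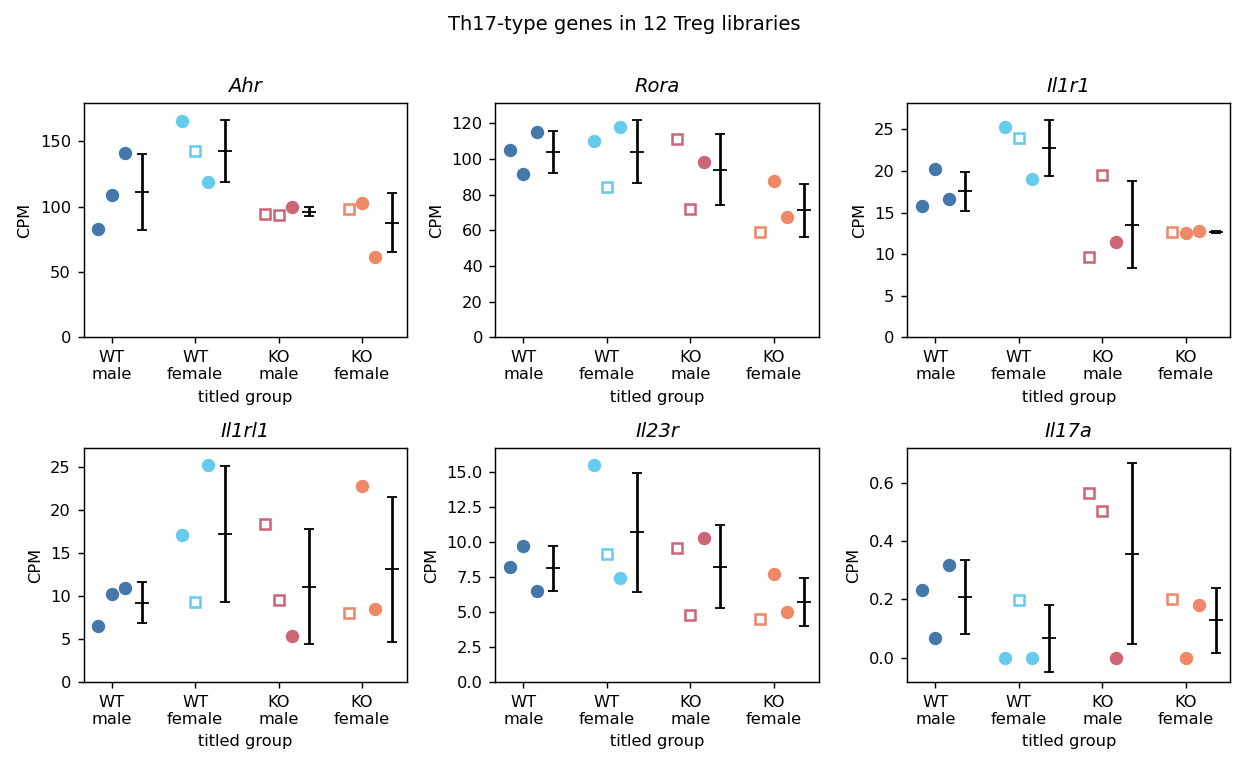
Levels of the 6 genes in each library, in CPM on a linear axis, by titled group; points are single libraries, open squares are the 4 libraries whose sex-linked transcripts go against their titles, and black marks are the group mean ± SD (n = 3). Il1r1 in the 3 KO female libraries lies between 12.5 and 12.8 CPM, Il1rl1 is spread from 5.34 to 25.2 CPM over all libraries, and Il17a stays at or below 0.566 CPM.

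Averaged over the sexes, the 5 genes with enough counts all had a negative fitted difference between KO-labelled and WT-labelled Tregs, and none of the 5 passed the test. The threshold was an adjusted p of 0.05 in edgeR's quasi-likelihood test over 13692 genes, of which 206, or 1.50%, passed. The log2 fold changes (KO relative to WT) were -0.61 for Il1r1 (SE 0.18, adjusted p = 0.116), -0.45 for Ahr (SE 0.16, adjusted p = 0.163), -0.44 for Il23r (SE 0.27, adjusted p = 0.453) and -0.35 for Rora (SE 0.14, adjusted p = 0.244). For Il1rl1 the value was -0.06 (SE 0.35, adjusted p = 0.95). The median of the 5 was -0.44, against 0.02 over all genes tested. At an unadjusted p under 0.05 there were 3 of the 5 (Il1r1, Ahr and Rora), where 15.9% of all genes tested were.

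Whether Il1r1 passed depended on the method and on 1 library, and whether Ahr passed depended on the low-count filter. Il1r1 passed with limma voom and quality weights (-0.74, adjusted p = 0.027), with DESeq2 (-0.60, adjusted p = 0.046) and without KO male 2 (-0.79, edgeR adjusted p = 0.0196), and its adjusted p ranged from 0.0196 to 0.253 over all alternatives. Ahr passed only where genes with low counts were kept in the edgeR fit (-0.46, adjusted p = 0.0435), with a range up to 0.329. For this average, 543 of 14315 genes passed without KO male 2, and 644 and 603 of 13692 with DESeq2 and limma voom. With low-count genes kept, 627 of 24584 did. Rora and Il23r did not pass under any alternative for this average. Without the 4 libraries against their titled sex none of the 5 passed, and the values were -0.74 for Il1r1 (SE 0.22, adjusted p = 0.126), -0.49 for Ahr, -0.33 for Rora, -0.27 for Il23r and -0.63 for Il1rl1 (SE 0.36, adjusted p = 0.394). None of the 5 genes separated the 6 KO-labelled from the 6 WT-labelled libraries completely, which 2.40% of all genes tested did (1.43% with KO lower).

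In females, fitted values were negative for all 5 genes, and the libraries separated for 2 of them. All 3 KO-labelled libraries lay below all 3 WT-labelled ones for Il1r1 (12.7 ± 0.136 against 22.8 ± 3.29 CPM) and for Ahr (87.9 ± 22.8 against 143 ± 23.5 CPM, SD, n = 3). Over all genes tested, KO lay below WT without overlap in 11.8%. The log2 fold changes were -0.90 for Il23r (SE 0.38, adjusted p = 0.618), -0.85 for Il1r1 (SE 0.26, adjusted p = 0.474), -0.70 for Ahr (SE 0.22, adjusted p = 0.474), -0.55 for Rora (SE 0.20, adjusted p = 0.53) and -0.39 for Il1rl1 (SE 0.49, adjusted p = 0.889). In the main edgeR fit (all libraries, with the low-count filter), 0 of 13692 genes passed in females, a share of 0%. An unadjusted p under 0.05 was found for 1055, or 7.71%, among them 4 of the 5 (all but Il1rl1). Without the 4 libraries against their titled sex the values lay between -0.86 for Il23r and -0.44 for Il1rl1, and none passed. DESeq2 called 22 genes in females and edgeR without the low-count filter 132 of 24584, none of them among the 5. With limma voom and quality weights 1721 genes passed, among them Rora, Il23r, Il1r1 and Ahr (adjusted p = 0.00389, 0.0148, 0.00389 and 0.00582).

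In males, fitted values lay nearer to 0 than in females for all 5 genes in the fit to all libraries, and 0 of the 5 passed, where 10 genes or 0.0730% of all tested did. The log2 fold changes were -0.37 for Il1r1 (SE 0.26, adjusted p = 0.545), -0.21 for Ahr (SE 0.22, adjusted p = 0.71), -0.15 for Rora (SE 0.20, adjusted p = 0.785), 0.01 for Il23r (SE 0.38, adjusted p = 0.99) and 0.27 for Il1rl1 (SE 0.49, adjusted p = 0.846). None had an unadjusted p under 0.05, against 14.2% of all genes tested, and KO and WT males overlapped for all 5 (14.4% of all genes tested did not overlap). Other fits called more or fewer genes in males: DESeq2 420, limma voom 0, and edgeR without the low-count filter 443 of 24584. Without KO male 2, edgeR called 734 of 14315. None of the 5 was among these genes. Without the 4 libraries against their titled sex, a single KO male library remained, and Il1rl1 then stood at -0.82 (SE 0.57, adjusted p = 0.419) with the spread taken from the other groups. The difference between the sexes in the KO effect, tested as an interaction, was negative for all 5, from -0.91 for Il23r (SE 0.53) to -0.40 for Rora (SE 0.29), and did not pass (adjusted p = 0.90 to 0.91). Without the 4 libraries it was 0.38 for Il1rl1 (SE 0.72) and negative for the other 4. No gene passed the interaction in the main edgeR fit, a share of 0%, with 659 or 4.81% at an unadjusted p under 0.05. DESeq2 called 3 genes, limma voom 0, and edgeR without the low-count filter 106 of 24584, none of them among the 5. The KO effects on the 5 genes in females and in males were thus not shown to differ.

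Between the sexes, none of the 5 genes passed, in WT or in KO. In the main edgeR fit no gene of all tested did (0%, with 893 or 6.52% and 722 or 5.27% at an unadjusted p under 0.05). DESeq2 called 30 genes in WT and 0 in KO, limma voom 369 and 0. Without the low-count filter, edgeR called 191 and 63 of 24584. In WT, female minus male gave 0.89 for Il1rl1 (SE 0.49, adjusted p = 0.719), 0.40 for Il23r (SE 0.37), 0.38 for Il1r1 (SE 0.26), 0.37 for Ahr (SE 0.22) and 0.00 for Rora (SE 0.20), with adjusted p up to 0.998. In KO the values were 0.23 for Il1rl1 (SE 0.49), -0.10 for Il1r1 (SE 0.26), -0.13 for Ahr (SE 0.22), -0.40 for Rora (SE 0.20) and -0.52 for Il23r (SE 0.38), with adjusted p from 0.849 to 0.946. Without the 4 libraries against their titled sex, Il1rl1 in KO stood at 1.58 (SE 0.62, adjusted p = 0.288), with a single KO male library left, and in WT at 1.20 (SE 0.41, adjusted p = 0.762). The other 4 genes then lay between -0.67 and 0.18 in KO and between 0.14 and 0.50 in WT, and none passed. These comparisons share libraries with those of KO and WT, and 4 of the 12 libraries went against the titled sex.

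**Figure D2:**
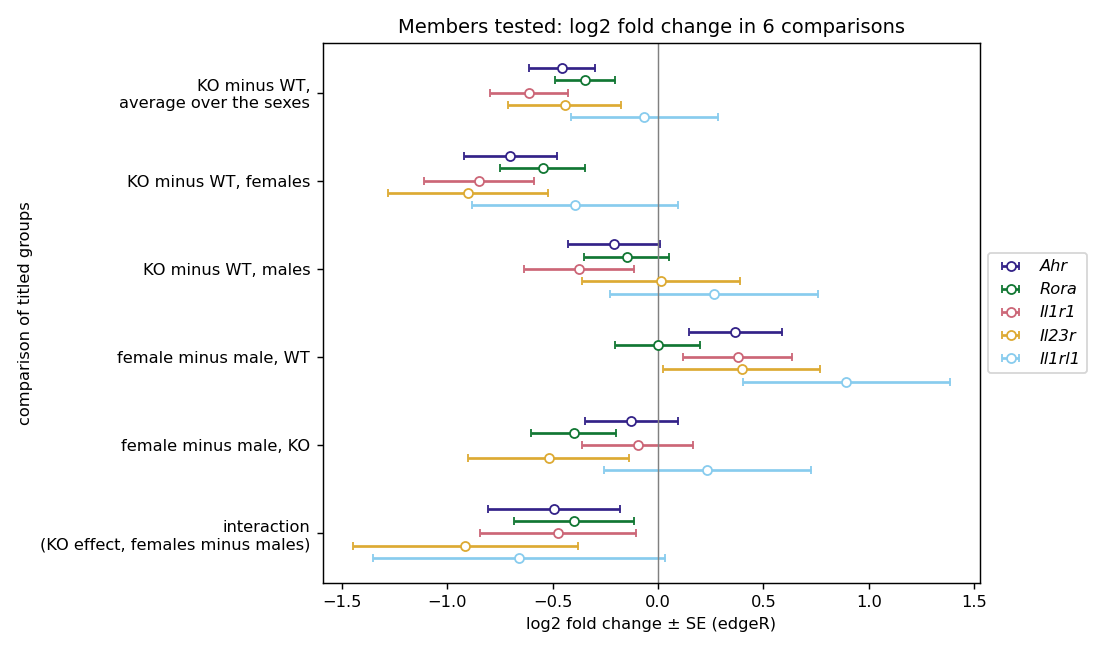
Fitted log2 fold changes of the 5 tested genes in 6 comparisons of titled groups, as open points with bars of ± 1 SE from edgeR. For the average over the sexes, 4 of the 5 lie between -0.61 and -0.35 and Il1rl1 lies near 0, and none of the points passed the test.

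The wider Th17 and Treg pathways around these genes held 3 changes in the edgeR test, all downward, while other tools also called genes that were higher in KO-labelled libraries. Of 85 genes in 7 lists, 77 had enough counts, and for the average over the sexes 3 of them fell and 0 rose, where 0.898% of all genes tested fell. Of the 77 genes, 50 had a negative value, with a median of -0.13, against 47.8% negative and a median of 0.02 over all genes tested. The 3 that fell were the clock repressor gene Nr1d2 and the transcription factor genes Bhlhe40 and Hif1a, and all 3 also passed with DESeq2, with limma voom and without the low-count filter. Over all genes, DESeq2 called 644 and limma voom 603 of 13692, and edgeR without the filter 627 of 24584. With DESeq2 6 list genes were called lower and 3 higher, with limma voom 7 and 3, and without the filter 7 and 2. The genes called higher were Il6ra and Tgfb1 in all of these fits and Il17ra with DESeq2 and limma voom.

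Clock genes stand next to Rora because ROR and REV-ERB proteins compete for the same DNA sites. Of 16 tested members, 1 fell, 13 had a negative value and the median was -0.13. Nr1d2, which encodes REV-ERB beta (chromosome 14, 18204054 to 18239127), ranged from 41.4 to 74.2 CPM in KO-labelled and from 82.5 to 136 CPM in WT-labelled libraries, without overlap. Its log2 fold change was -0.85 (SE 0.15, adjusted p = 0.0196), and it did not pass without WT female 3 (adjusted p = 0.0592) or without KO female 3 (0.0744). Nr1d1, its paralog REV-ERB alpha, singled out after its values were seen, also did not overlap (24.5 ± 9.40 against 41.9 ± 7.68 CPM) and missed the threshold in the edgeR fit to all libraries (-0.81, SE 0.22, adjusted p = 0.0761). It passed with DESeq2 (adjusted p = 0.0149), with limma voom (0.0108), without the low-count filter (0.000314), without KO male 2 (-1.09, 0.00785) and without the 4 libraries against their titled sex (-1.32, SE 0.21, 0.0498), where it was the 1 list gene that passed.

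Among 14 tested Th17 transcription factors, 2 fell, 13 had a negative value and the median was -0.29. Bhlhe40, which supports cytokine production by pathogenic T cells (chromosome 6, 108660629 to 108666925), ranged from 78.6 to 115 CPM (median 105) in KO and from 117 to 220 CPM (median 183) in WT, and all 6 KO-labelled libraries lay below all WT-labelled ones. Its log2 fold change was -0.79 (SE 0.15, adjusted p = 0.0275). Hif1a, the hypoxia-inducible factor that supports Th17 differentiation (chromosome 12, 73901375 to 73947530), ranged from 282 to 495 CPM in KO and from 460 to 729 CPM in WT, with 5 KO libraries below all WT ones (-0.60, SE 0.12, adjusted p = 0.0312). With each of the 12 libraries left out in turn the fold changes kept their sign, from -0.94 to -0.73 for Nr1d2, from -0.88 to -0.63 for Bhlhe40 and from -0.66 to -0.54 for Hif1a. Nr1d2 then missed the threshold in 2 of the 12 fits, Bhlhe40 in 6 and Hif1a in 8, with adjusted p of at most 0.0744, 0.0842 and 0.102. All 3 missed it without WT female 3 and without KO female 3. Without the 4 libraries against their titled sex all 3 missed it as well, at -1.06 for Nr1d2 (adjusted p = 0.053), -0.80 for Bhlhe40 (0.0846) and -0.68 for Hif1a (0.0722).

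**Figure D3:**
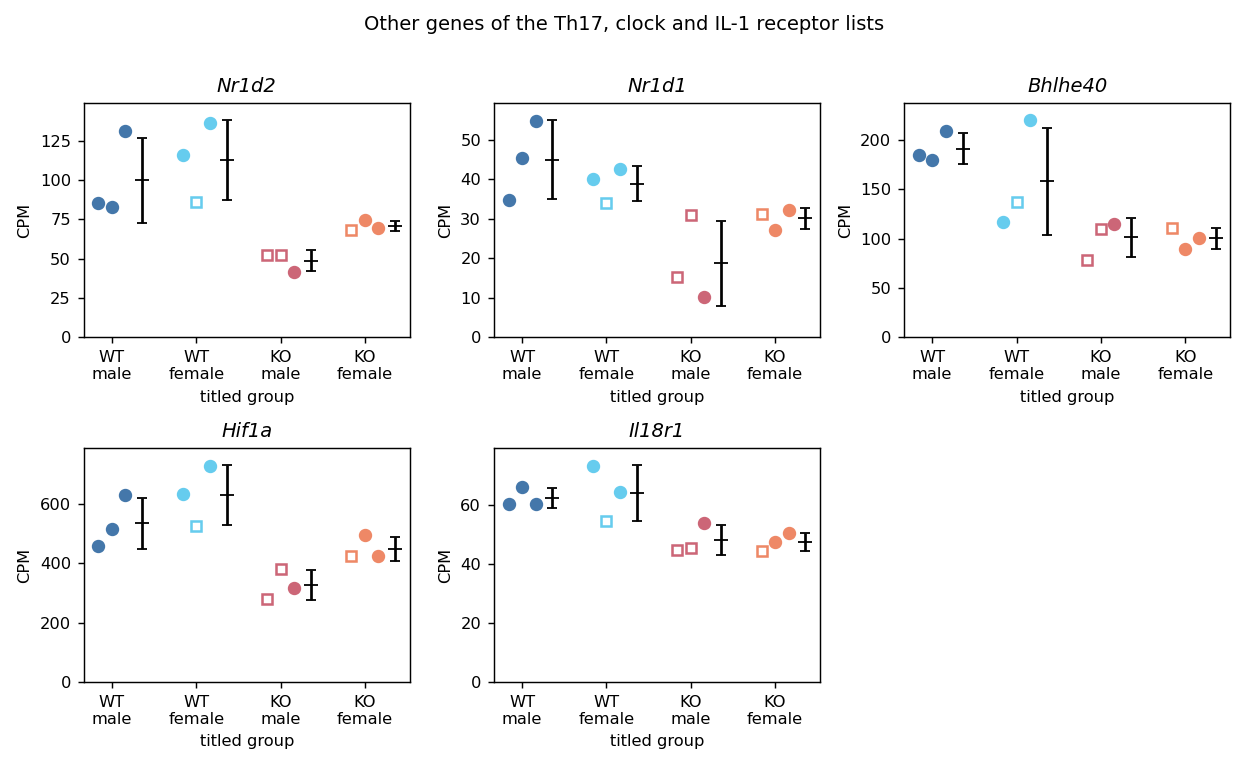
Levels of 5 genes of the pathway lists in each library, in CPM, by titled group; points are single libraries, open squares are the 4 libraries against their titled sex, and black marks are the group mean ± SD (n = 3). Nr1d2, Nr1d1, Bhlhe40 and Il18r1 show KO-labelled libraries below all WT-labelled ones, whereas Hif1a overlaps.

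The other lists had no passing gene in the edgeR fit to all libraries. Of the IL-1 receptor family and its signalling genes, 15 were tested, 8 had a negative value and the median was -0.06. Outside the 6 Th17-type genes, the smallest p belonged to Il18r1, the IL-18 receptor gene (47.7 ± 3.77 against 63.1 ± 6.39 CPM, no overlap, -0.40, SE 0.11, adjusted p = 0.0872). Next came Il1rap, the coreceptor chain that ST2 and the IL-1 receptor share (24.9 ± 8.41 against 36.8 ± 7.66 CPM, -0.56, SE 0.23, adjusted p = 0.241). Il18r1 begins 137 bases beyond the end of Il1rl1, so reads near that border can belong to either. Il1rl2, between Il1r1 and Il1rl1, was at 0.18 (SE 0.51), and Il1r2, the decoy receptor gene on the other side of Il1r1, at -0.30 (SE 0.20).

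Of the 11 Th17 receptor genes tested, 6 had a positive value, with a median of 0.06. The smallest p belonged to genes that were higher in KO-labelled libraries, Il6ra (136 ± 40.7 against 91.7 ± 12 CPM, 0.54, SE 0.13, adjusted p = 0.052) and Il17ra (420 ± 63.7 against 323 ± 34.6 CPM, 0.38, SE 0.12, adjusted p = 0.128), the receptor chains for IL-6 and IL-17. Il6ra passed with DESeq2 (0.55, adjusted p = 0.00439), with limma voom (0.60, 0.00807), without the low-count filter (0.52, 0.014) and in 2 of 12 edgeR fits with a library left out (without KO male 2 and without KO female 2). Il17ra passed with DESeq2 (0.39, 0.0349), with limma voom (0.38, 0.0391) and without KO male 1 (0.0446). Il12rb2, the nearest tested neighbour of Il23r, was at 0.82 (SE 0.34, adjusted p = 0.251). Of 10 cytokine genes 5 had enough counts, with a median of 0.13. Tgfb1, the gene of the cytokine TGF-beta 1, was at 0.55 (131 ± 25.0 against 89.5 ± 20.3 CPM, SE 0.17, adjusted p = 0.133), and it passed with DESeq2 (adjusted p = 0.0451), limma voom (0.041) and no filter (0.00927). Il10 was at -0.34 (SE 0.26, adjusted p = 0.565). Il17f, next to Il17a, was at 0.96 (2.77 ± 2.43 against 1.38 ± 1.25 CPM, SE 0.94, adjusted p = 0.663). It had 0 counts in WT male 3 and in KO male 3.

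The aryl hydrocarbon receptor list had 9 tested genes with a median of -0.19. Its target Cyp1a1 was at 0.248 ± 0.232 CPM in KO-labelled and 0.622 ± 0.371 CPM in WT-labelled libraries (adjusted p = 0.48), near the limit that a count of 0 allows, and Ptges3, a chaperone of the receptor, was at -0.27 (SE 0.12, adjusted p = 0.289). Of 14 genes of ST2-positive tissue Tregs, 10 had a negative value, with a median of -0.20. The smallest p after Rora were those of Ccr4 (-0.26, SE 0.14, adjusted p = 0.403), a homing receptor gene, and Gata3 (-0.21, SE 0.12, adjusted p = 0.429), a factor that promotes Il1rl1.

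**Figure D4:**
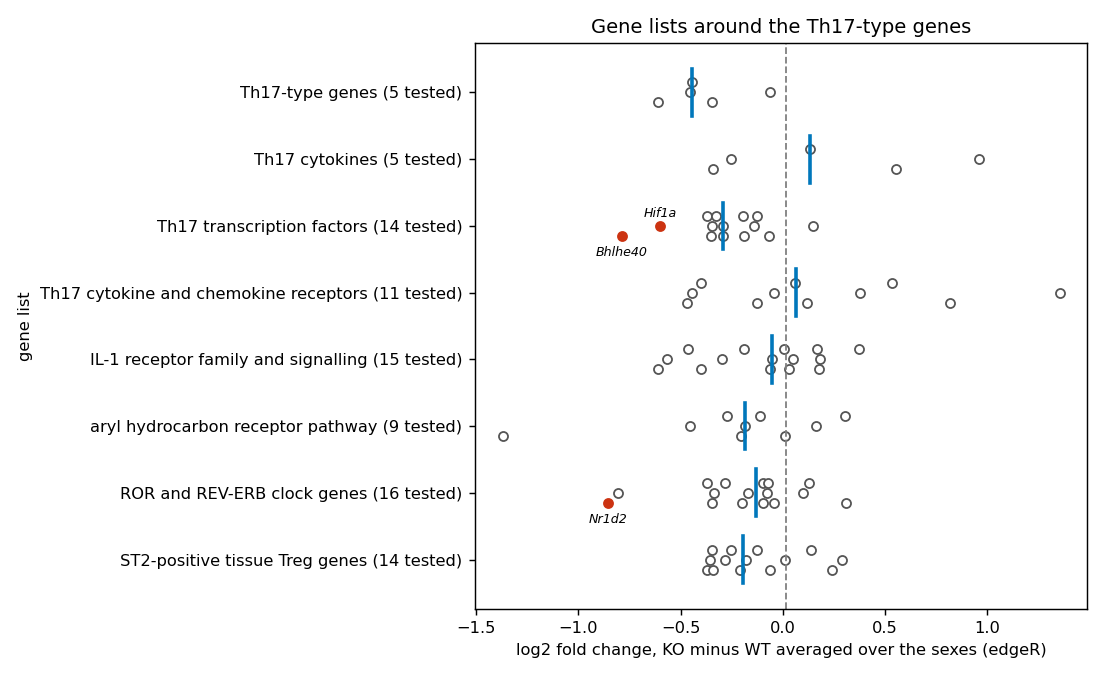
Fitted log2 fold change (KO relative to WT, averaged over males and females) for each tested gene of the Th17-type genes and 7 pathway lists; open circles did not pass, filled red circles passed, blue bars are the list medians and the dashed line is the median of all 13692 genes (0.02). The passing genes are Hif1a, Bhlhe40 and Nr1d2, and list medians run from -0.44 for the Th17-type genes to 0.13 for the cytokines.

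Cells other than Tregs can also carry these transcripts, and markers of some such cells differed between the titled genotypes. For the average over the sexes, 5 of 8 B cell markers rose in KO-labelled libraries, where 0.606% of all genes tested rose, and their summed level was 164 to 376 CPM in KO and 38.9 to 200 CPM in WT. Of 7 tested neutrophil markers 4 rose (sums of 2.10 to 55.9 against 0.414 to 2.61 CPM). Macrophage and dendritic cell markers summed to 135 to 353 CPM in KO and 19.0 to 301 CPM in WT, with 0 of 9 passing. In WT males and WT females apart, these sums were 19.0 to 48.2 and 41.0 to 301 CPM. For B cell markers they were 38.9 to 65.9 and 60.7 to 200 CPM. Median log2 fold changes (KO relative to WT) of the tested markers in females and males were 1.28 and 3.37 for B cells. They were 0.14 and 1.55 for macrophages and dendritic cells, and 4.99 and 4.38 for neutrophils. In these lists 0 markers passed the interaction in the main edgeR fit, so a dependence on titled sex was not shown. The part of these cells in the fitted values of the 5 Th17-type genes, none of which passed in the main edgeR fit, was not tested.

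Summed markers of cells known for Il23r, Il1r1 or Il1rl1 overlapped between the titled genotypes. Innate lymphoid cell markers summed to 33.3 to 56.4 CPM in KO and 36.9 to 67.3 CPM in WT, and mast cell and basophil markers to 23.3 to 45.0 and 20.7 to 41.7 CPM, with Kit the most abundant of both (18.1 CPM). For gamma-delta T cells 4 of 8 markers have a row in the table, and they summed to 4.37 to 15.0 CPM in KO and 2.83 to 14.3 CPM in WT. The most abundant of the 4 was Blk (6.74 ± 3.28 CPM in KO and 1.96 ± 1.63 CPM in WT), which is also in the B cell list, and the 2 that no other marker list holds summed to 0.0971 to 2.46 and 0.827 to 3.74 CPM. Conventional CD4 T cell markers summed to 726 to 1080 CPM in KO and 770 to 1010 CPM in WT, most of it Tcf7 (623 CPM), and stromal and endothelial markers to 4.90 to 29.4 and 2.75 to 7.40 CPM. None of the markers of these lists passed for the average, and none of those in the table was at 0 in every library. The part of these cells in the Th17-type transcripts was not tested.

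Across the 12 libraries, the Th17-type genes went together only in part. Pearson correlations of log2 CPM between pairs of the 5 tested genes ran from 0.111 for Il1r1 with Il1rl1 to 0.686 for Rora with Il23r, with 0.63 for Il1r1 with Ahr. The points share the scaling and the titled groups, and the values are given as a description (n = 12 libraries). Over 10692 genes with a mean of at least 1 CPM, the patterns most like each gene were those of Mdfic, Ptger2 and Nr3c2 for Rora (r = 0.939, 0.919 and 0.914), Fam26e, Narg2 and Cdc27 for Ahr (0.906, 0.876 and 0.852), and Ttc9c, Styx and Xiap for Il23r (0.886, 0.864 and 0.847). For Il1r1 they were Ptpn7, Hnrpll and Miat (0.918, 0.894 and 0.885), and for Il1rl1 they were Dsel, Rpgrip1l and Ppt2 (0.886, 0.881 and 0.87). These r are the highest of many and describe these 12 libraries only.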

How the data were processed

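RNA from sorted Tregs was isolated with NucleoSpin XS and made into libraries with SMART-Seq v4 and Nextera XT, per the labels' protocols; these kits do not mark the strand. The authors deposited raw counts for 26609 gene symbols and log2 values for 24584 of them. Reads went through HISAT2 2.0.5 and featureCounts 1.5.0-p2 on GRCm38, with Subread and edgeR also named, per the submitters' processing notes; the sources used here do not state the annotation release. CPM recomputed with TMM scaling and a prior count of 0.25 differed from the deposited log2 values by at most 5e-14.

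Groups came from the sample titles; the number 2 stands on more than 1 WT male title, and libraries are numbered 1 to 3 here. After filterByExpr, 13692 genes were fitted in 1 edgeR quasi-likelihood model of 4 group means (R 4.3.3, edgeR 4.0.16, limma 3.58.1, DESeq2 1.42.0), two-sided, with Benjamini-Hochberg adjustment over all genes called at 0.05. Genes varied by 29.3% between libraries of a group (common coefficient of variation). Il17a, below the filter, was tested by exact permutation of log2(CPM + 1). Alternatives changed scaling, filter, tool, replicate block and libraries used. Exon lengths from GENCODE M21 matched 88.1% of tested genes, and upstream windows came from RefSeq (GRCm38.p6).

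The genes, lists and tests were chosen with earlier results of these data known. Besides the members, the text names passing list genes, or where a list has none the non-members with the smallest p, neighbours of a member on its chromosome, the most abundant markers and the closest patterns. On simulated counts of 13692 genes, of which 100 were given a 2-fold and 100 a 4-fold change, the test recovered 81 and 82 for the average over the sexes, 39 and 74 in females, 57 and 78 in males, 54 and 72 for sex in WT, 46 and 71 for sex in KO, and 15 and 60 for the interaction; 1 to 9 unchanged genes were called.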

Additional observations from a re-analysis of the deposited data

Results flagged for a closer look

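Single libraries stood apart in 3 of 12 sets of 6 libraries (6 genes, KO-labelled and WT-labelled), judged by the gap to the nearest library relative to the whole range against Dixon's 95% critical value; chance marks about 1 in 20 sets. Il23r was at 15.5 CPM in WT female 1, where the next WT-labelled library had 9.72 CPM (gap ratio 0.644). Il1r1 was at 19.5 CPM in KO male 2, one of the libraries against its titled sex, where the next KO-labelled library had 12.8 CPM (0.685). Ahr was at 61.7 CPM in KO female 3, where the next KO-labelled library had 93.4 CPM (0.759). Without KO male 2, Il1r1 passed for the average over the sexes (log2 fold change -0.79, edgeR adjusted p = 0.0196). That library was picked out by these same values. Without it 543 of 14315 genes passed, against 206 of 13692 with all libraries.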

How the results depend on the processing

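In the main edgeR fit, 0 of the 5 tested genes passed in each of 6 comparisons. For the average over the sexes the count was 1 without the low-count filter (Ahr), 1 with limma voom and 1 with DESeq2 (Il1r1 each), and 0 to 1 with each library left out in turn (1 without KO male 2). For females it was 4 with limma voom. Over all genes, 206 of 13692 passed for the average in the main fit and 627 of 24584 without the filter. With limma voom 603 of 13692 passed and with DESeq2 644. The genes of the 7 pathway lists that passed for the average numbered 3. They numbered 9 without the filter, 10 with limma voom, 9 with DESeq2, 1 with WT male 2 and 3 summed, 1 without the 4 libraries against their titled sex (Nr1d1, not one of the 3), and 0 to 6 with each library left out. With the title number as a replicate block 0 of the 5 genes passed in any comparison and 0 list genes did. Same-numbered libraries did not deviate together (r from -0.27 to 0.09 over 18 pairs). Of 36 pairs with different numbers, 9 had r over 0.1. With 4 libraries against their titled sex and a repeated title number, these r cannot decide whether libraries were paired. Other causes of the changed counts of passing genes were not tested.

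Of the alternative values of single genes, 34 changed sign, 558 kept their direction and side of the threshold, and 8 passed where the main value did not. For males, Il23r was -0.0464 with limma trend and -0.0492 with limma voom, against 0.01, and Il1rl1 was -0.82 without the 4 libraries. For sex in WT, Rora was 0.0021 without the filter, 0.14 without the 4 libraries and 0.0629 with limma voom, against 0.00. For sex in KO, Il1r1 was 0.18 without the 4 libraries and 0.0833 with limma voom, and Il1rl1 -0.31 with limma voom. The interaction of Il1rl1 was 0.38 without the 4 libraries. With single libraries left out, the values that changed sign ranged from -0.40 to 0.12 for Il1rl1 on average. In males the ranges were -0.29 to 0.0105 for Rora, -0.18 to 0.29 for Il23r, -0.39 to 0.0031 for Ahr and -0.31 to 0.59 for Il1rl1. For sex in WT the range was -0.11 to 0.13 for Rora. For sex in KO the ranges were -0.29 to 0.27 for Il1r1, -0.26 to 0.0746 for Ahr and -0.43 to 0.81 for Il1rl1. For Il17a a pseudocount of 0.1 gave a difference of 0.38 (exact permutation p = 0.55, KO minus WT). Il17a is limited by its 32 counts and by the number of libraries.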
